A study of Mus musculus with 18 samples.

Results

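The interferon-stimulated genes Ifit1, Ifit2, Ifit3, Rsad2, Mx1, Mx2, Oasl2, Irf7, Usp18 and Ifi209 were followed across the reprogramming of mouse embryonic fibroblasts (MEFs). They are 10 of the 19938 genes with a probe that carries 1 gene symbol, and each of the 10 had exactly 1 such probe among the 28853 on the array. Signal, the probe brightness after RMA normalization on a linear scale, was read from 18 arrays (Affymetrix GeneChip Mouse Gene 1.0 ST), and a gene was called changed where limma's p, adjusted over all probes tested, was under 0.05. The MEFs were E13.5 cells on a C57BL/6 background with ROSA-rtTA and a Nanog-GFP reporter. The day before doxycycline they were transfected with polycistronic cassettes of the reprogramming factors on piggyBac transposons with mCherry, together with a transposase plasmid. High-KLF4 cells carried OK+9MS, which encodes the long form of KLF4, and low-KLF4 cells carried OKMS, which encodes the short form. From both, mCherry+ cells were sorted after 2, 4, 8 and 18 days in doxycycline at 1 µg/mL, with 2 arrays per cassette on day 8 and 1 array per cassette on each other day. The iPSCs were clones A10 and H10 from high-KLF4 and A7 and A9 from low-KLF4, so the 2 arrays of a cassette are different clones. Doxycycline is stated for the mCherry+ cells only, and not for the clones, keratinocytes or mESCs. In comparisons with the clones, stage, doxycycline and recent transfection therefore cannot be told apart. Primary keratinocytes of newborn pups had 2 arrays, and the mESC line 1A2, homozygous for Nanog-GFP, had 2 arrays. Per the study's methods the paired arrays of day 8, keratinocytes and mESCs are independent experiments. The p-values here measure the spread between such arrays and, where the clones are in the fit, between clones of a cassette. In the fits of stages and of cassettes over days 2 to 18 they also measure how far the cassette difference varies between stages. Arrays of cells before doxycycline are not analysed here, so every value below describes the course from day 2 onwards and not a change from the starting MEFs.

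Type I interferons bind a cell-surface receptor whose JAK kinases pass the signal on by phosphorylation. A complex that includes STAT2 and IRF9 then binds the interferon-stimulated response element (ISRE) in the promoters of its target genes, many of which code for antiviral proteins. Fibroblasts produce interferon and respond to it readily, whereas pluripotent stem cells are known for a weak interferon system.

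The labelled cell types were visible in their markers. The summed signal of 11 measured fibroblast markers lay between 8870 and 39715 on the mCherry+ arrays, between 6687 and 8839 in the iPSC clones, between 1421 and 1525 in keratinocytes and between 4746 and 5074 in mESCs. The sum of 12 pluripotency markers was 1222 and 1215 on day 2 of high-KLF4 and low-KLF4, and 42433 to 44806 in the iPSC clones. The pair of day 8 arrays stood apart in both cassettes, with fibroblast sums of 38564 and 14678 for the high-KLF4 pair and 39715 and 8870 for the low-KLF4 pair, so that the second low-KLF4 array was near the clones in this sum.

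On day 2 most of the 10 genes were far above their level in the iPSC clones, and Ifit1 was the highest of them by fold. Ifit1, which codes for an antiviral RNA-binding protein with tetratricopeptide repeats, had a day 2 signal of 2267 with high-KLF4 and 2574 with low-KLF4, against 87.9 and 99.2 in the high-KLF4 clones and 71.7 and 83.2 in the low-KLF4 clones. Both day 2 arrays were thus far above all 4 clones. The difference was 4.83 on the log2 scale (SE 0.32, 28.4-fold, adjusted p = 3.09e-06 in limma with both cassettes as replicates of a stage). It was the 3rd largest positive difference of the 23410 probes tested. Fewer cells of a type and less RNA per cell cannot be told apart in such bulk samples.

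Ifit3 and Ifit2 code for relatives of IFIT1. They are neighbours on chromosome 19, which also carries Ifit1. Ifit3 had a day 2 signal of 1371 with high-KLF4 and 1603 with low-KLF4, against 97.8 and 118 in the high-KLF4 clones and 96.5 and 94.9 in the low-KLF4 clones, a difference of 3.87 (SE 0.44, adjusted p = 9.12e-05 in limma). Ifit2 moved less than the other IFIT genes. Its signal was 303 and 280.2 on day 2 of high-KLF4 and low-KLF4, against 89.7 and 78.7 in the high-KLF4 clones and 81.8 and 81.2 in the low-KLF4 clones, a difference of 1.82 (SE 0.19, adjusted p = 5.2e-05 in limma).

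Rsad2 codes for viperin, an enzyme that makes a nucleotide blocking viral RNA synthesis. Its signal was 1281 and 1319 on day 2 of high-KLF4 and low-KLF4, against 86.6 and 66.9 in the high-KLF4 clones and 87.0 and 88.5 in the low-KLF4 clones, a difference of 3.99 (SE 0.28, adjusted p = 4.74e-06 in limma). Oasl2, a relative of the oligoadenylate synthetases, had 2951 and 2998 on day 2, against 378 and 326 in the high-KLF4 clones and 392 and 460.0 in the low-KLF4 clones. Both day 2 arrays were above every clone, and the difference was 2.95 (SE 0.30, adjusted p = 4.68e-05 in limma).

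Mx1 and Mx2, relatives of the antiviral dynamin-like GTPases, are annotated as transcribed pseudogenes in the C57BL/6J RefSeq table. Mx2 had 98.5 and 85.0 on day 2 of high-KLF4 and low-KLF4, against 35.8 and 46.4 in the high-KLF4 clones and 41.5 and 42.0 in the low-KLF4 clones, a difference of 1.15 (SE 0.19, adjusted p = 0.00104 in limma). Mx1 had 53.0 and 50.0 on day 2, against 36.6 and 43.2 in the high-KLF4 clones and 38.7 and 36.7 in the low-KLF4 clones. These Mx1 values did not overlap, yet the difference of 0.41 (SE 0.16) did not pass the test (adjusted p = 0.0573 in limma). Detection calls were not used here, so whether either signal lay above background is not known.

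The regulators Irf7 and Usp18 were higher on day 2 as well. Irf7, a transcription factor that amplifies interferon production, had 1211 and 1105 on day 2 of high-KLF4 and low-KLF4, against 95.5 and 84.9 in the high-KLF4 clones and 78.3 and 99.0 in the low-KLF4 clones (difference 3.70, SE 0.37, adjusted p = 4.55e-05 in limma). Usp18 codes for the protease that removes ISG15 from proteins and dampens signalling at the interferon receptor. It had 2349 and 2315 on day 2, against 153 and 175 in the high-KLF4 clones and 134 and 165 in the low-KLF4 clones (difference 3.90, SE 0.42, adjusted p = 7.03e-05 in limma). For both genes the 2 day 2 arrays agreed closely and stood above every clone.

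Ifi209, a PYHIN family gene that the study lists as Pyhin1, had the largest standard error of the 10 genes in this comparison. Its signal was 177 and 131 on day 2 of high-KLF4 and low-KLF4, against 36.0 and 34.0 in the high-KLF4 clones and 35.7 and 36.3 in the low-KLF4 clones. The groups did not overlap, and the difference was 2.11 (SE 0.70, adjusted p = 0.033 in limma). Without the low-KLF4 day 2 array the adjusted p was 0.219.

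**Figure D1:**
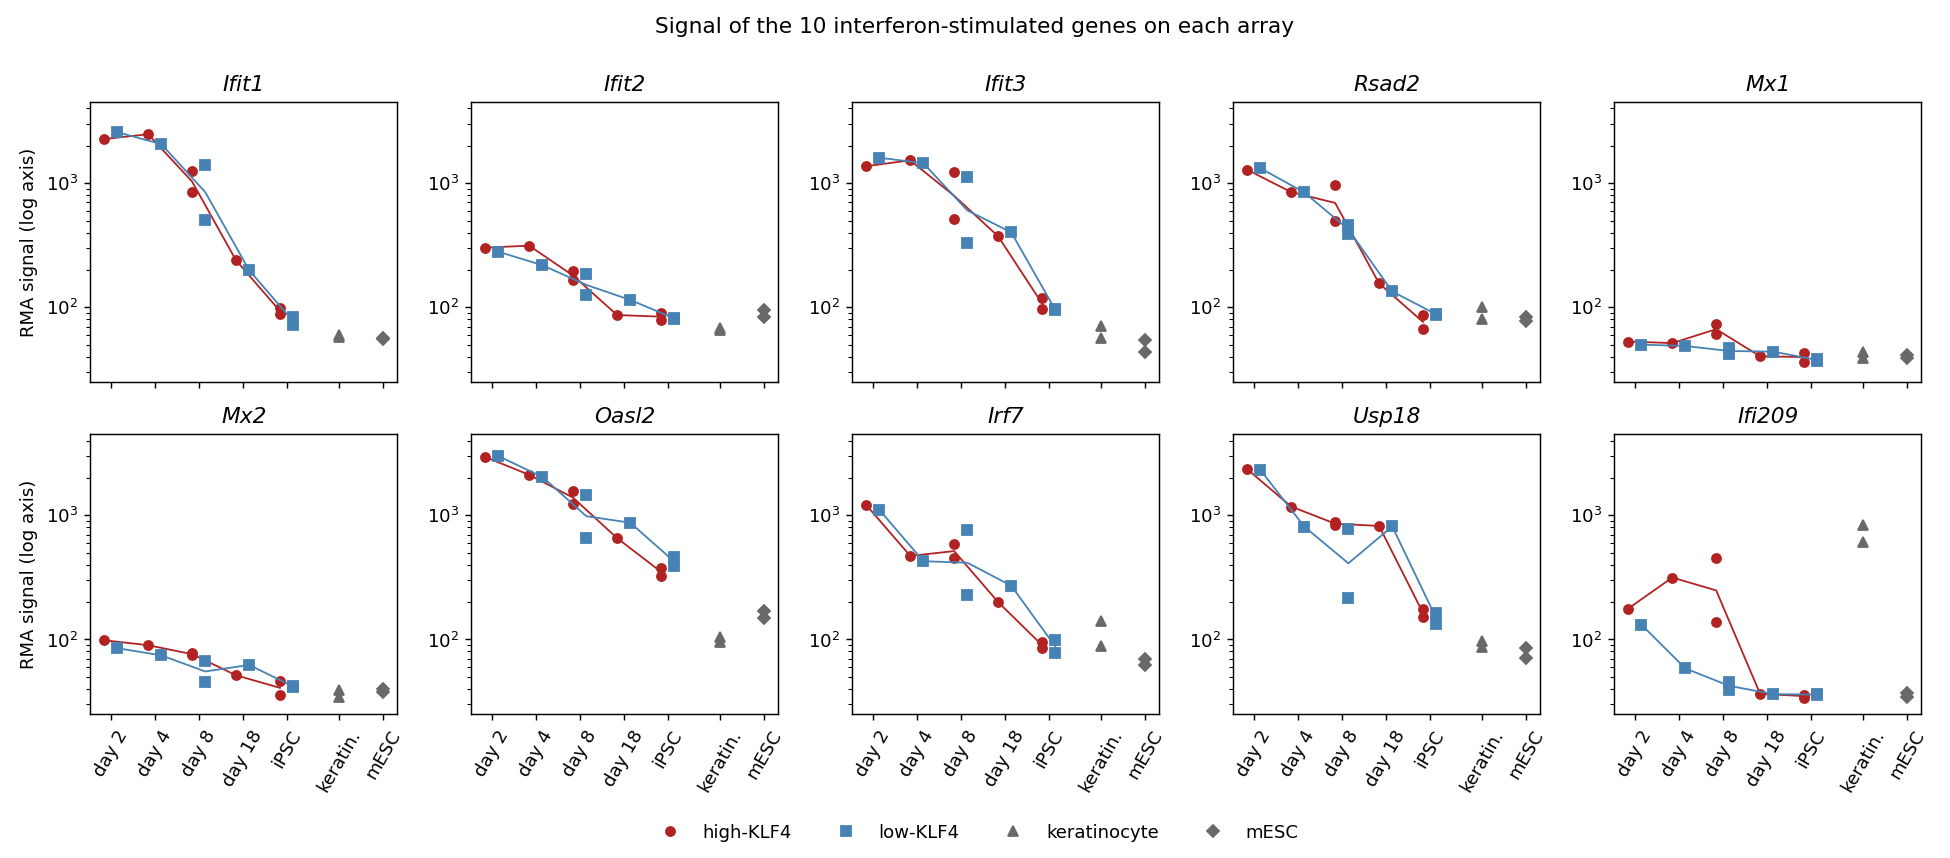
Signal of each of the 10 genes on each array (log axis), by stage for high-KLF4 (circles) and low-KLF4 (squares), with keratinocytes (triangles) and mESCs (diamonds). Lines join the geometric means of the arrays of a stage. Ifit1 has 2267 and 2574 on day 2 and 71.7 to 99.2 in the clones, and Ifi209 is highest in keratinocytes, at 839.6 and 608.

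In all, limma called 9 of the 10 genes higher on day 2 than in the iPSC clones, beside 25.5% of all probes called higher in this comparison. The median difference was 3.32 for the 10 genes and 0.10 for all probes tested. The 10 genes, and the gene lists used below, were chosen with earlier results of these data known. Such counts and medians therefore describe these genes and are no independent test. All 10 had day 2 arrays above every clone, as had 44.7% of all probes. Within each cassette 1 day 2 array stands against 2 clones and gives no test. There the high-KLF4 cells were 1.33-fold (Mx1) to 24.3-fold (Ifit1) above their clones, and the low-KLF4 cells 1.33-fold to 33.3-fold for the same genes. At least 2-fold differences were seen in 9 of 10 genes in high-KLF4 and in 9 of 10 in low-KLF4, where 7.54% and 4.49% of all probes were that much higher.

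The ISRE core stood in some of the promoters and not in others. RefSeq promoter windows (GRCm38.p6, 250 bases before and 50 after the start) were given for 7 of the 10 genes, and Mx1, Mx2 and Usp18 had none. The core of the ISRE, GAAANNGAAA on either strand (TTTCNNTTTC when read from the other strand, where N is any base), was found in 3 of these 7 genes, Ifit1, Ifit3 and Rsad2, and in 3.99% of all 27025 genes with a window (3.44% of 32851 windows). Ifit1 and Ifit3 held it 2 times and Rsad2 once. The 250 bases before the start are printed for these genes and for Ifi209, the gene whose course departs from theirs, with the core in capitals.
Ifit1 (chr19:34640639-34640888, + strand): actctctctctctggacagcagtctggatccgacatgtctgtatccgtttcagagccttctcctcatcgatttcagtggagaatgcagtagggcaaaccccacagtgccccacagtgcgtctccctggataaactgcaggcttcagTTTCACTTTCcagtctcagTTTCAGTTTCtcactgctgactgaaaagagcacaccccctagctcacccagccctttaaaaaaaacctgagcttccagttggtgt
Ifit3 (chr19:34583279-34583528, + strand): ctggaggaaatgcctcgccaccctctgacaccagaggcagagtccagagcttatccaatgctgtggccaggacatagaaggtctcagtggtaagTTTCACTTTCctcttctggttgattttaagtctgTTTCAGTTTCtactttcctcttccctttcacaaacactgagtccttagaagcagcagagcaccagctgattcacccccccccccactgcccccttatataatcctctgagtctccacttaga
Rsad2 (chr12:26456453-26456702, - strand): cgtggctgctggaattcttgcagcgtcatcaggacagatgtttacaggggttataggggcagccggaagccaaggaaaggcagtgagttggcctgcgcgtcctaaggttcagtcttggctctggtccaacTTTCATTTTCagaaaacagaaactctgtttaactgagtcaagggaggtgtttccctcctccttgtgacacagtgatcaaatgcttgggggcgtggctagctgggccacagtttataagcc
Ifi209 (chr1:173630609-173630858, + strand): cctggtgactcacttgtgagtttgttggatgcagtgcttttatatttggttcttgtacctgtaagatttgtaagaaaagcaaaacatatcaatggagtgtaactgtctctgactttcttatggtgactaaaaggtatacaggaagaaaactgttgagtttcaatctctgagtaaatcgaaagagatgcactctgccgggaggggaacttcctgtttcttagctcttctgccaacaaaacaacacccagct
The copies in Ifit1 began 104 and 85 bases before the start and those in Ifit3 156 and 122 bases before it. The 2 genes carried the same pair of versions, TTTCACTTTC followed by TTTCAGTTTC, and Rsad2 carried TTTCATTTTC 120 bases before its start. Ifit2, Oasl2, Irf7 and Ifi209 held no such letters in their windows, and all of them were among the genes called higher on day 2. A match is a description of the letters and not a shown binding site.

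Some of the genes were far below their day 2 level by day 4 and others were not. On day 4 Ifit1 still had 2479 in high-KLF4 and 2061 in low-KLF4, whereas Irf7 was at 471 and 427, and Usp18 at 1177 and 810.0. All 10 genes were below their day 2 value in low-KLF4 on day 4, and 6 of 10 were in high-KLF4. Between day 2 and day 8 limma called 5 of the 10 genes lower on day 8 (3.05% of all probes were called lower), and these were Ifit1, Ifit2, Rsad2, Oasl2 and Usp18. Usp18 fell by 1.98 (SE 0.42, adjusted p = 0.0286 in limma), to 830.1 and 884 on the high-KLF4 arrays and 774 and 218 on the low-KLF4 arrays. Ifit1 fell by 1.37 (SE 0.32, adjusted p = 0.0395 in limma), to 1247 and 849 on the high-KLF4 arrays and 1407 and 508 on the low-KLF4 arrays. These 5 calls rest on both day 2 arrays, since none of the 10 genes was called when either of them was left out, and 3 were called without the first high-KLF4 array of day 8. None was called in the methods' t-test with adjustment or in a fit of these stages alone. Neither of these called any of the 23410 probes lower, so they say nothing about these genes in particular. In the t-test 3 of the 10 had an unadjusted p under 0.05, as had 2054 of all probes in this direction. With either day 2 array left out, far fewer of all probes were called lower as well.

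On day 8 limma called 9 of the 10 genes higher than in the iPSC clones (19.6% of all probes), with Ifi209 missing the threshold (difference 1.53, adjusted p = 0.056). Ifit1 was 11.0-fold above the clones (log2 difference 3.46, SE 0.26, adjusted p = 5.46e-06 in limma) and Mx1 1.41-fold. The second low-KLF4 array was lower than the first for 8 of the 10 genes, with Ifit3 at 1113 and 327 and Irf7 at 761 and 227. The exceptions were Rsad2, with 389 and 461, and Ifi209, with 39.5 and 45.2. In high-KLF4, 3 of the 10 genes were lower on the second array (Ifit1, Ifit3 and Mx2), and Rsad2 had 494 and 973. The array with the lower fibroblast sum was the second in each cassette, and its part in these differences was not tested.

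On day 18 all 10 genes were nearer to the clones than on day 2 in both cassettes, by unequal amounts. In the study's scheme cultures were passaged on day 8, and silenced mCherry with active Nanog-GFP marks full reprogramming. The day 18 cells were sorted as mCherry+, which the study largely counts as failing to reprogram. These values therefore do not trace cells on their way to the clones. Limma called 6 of the 10 genes higher on day 18 than in the clones (13.2% of all probes), namely Ifit1, Ifit3, Rsad2, Oasl2, Irf7 and Usp18. Usp18 had the largest difference from the clones of the 10, with 822 in high-KLF4 and 814 in low-KLF4 on day 18. Its difference was 2.39 (SE 0.42, adjusted p = 0.00194 in limma), and on day 8 it had been 1.93. In low-KLF4 the day 18 array was above the day 8 mean by 0.99 for Usp18 and by 0.18 for Mx2 on the log2 scale, with no test, and 8 of 10 genes were below it. In high-KLF4 all 10 were below it. Ifit3 remained at 374 and 402, which was 1.93 above the clones (adjusted p = 0.00729 in limma). On the log2 scale the day 18 level of Usp18 lay 39.4% of the distance from day 2 to the clones in high-KLF4 and 38.1% in low-KLF4. That of Ifit1 lay at 70.6% and 73.1%. Ifi209 lay at 97.3% and 99.3%, with signals of 36.5 and 36.3. Without the low-KLF4 day 18 array 1 gene was called, and without the high-KLF4 day 18 array 3 were. Fewer of all probes were called in each of these fits as well. The 3 comparisons with the clones share the same 4 clone arrays.

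The fibroblast sum was not lower on day 18 than on day 2. It was 24219 in high-KLF4 and 16672 in low-KLF4 on day 2, and 24653 and 24353 on day 18, all above every clone, while the pluripotency sum on day 18 was 18470 and 27391. The single fibroblast markers went both ways between these days. In high-KLF4 Twist2 went from 1871 to 524 and Prrx1 from 4671 to 1684. Lum went from 146 to 2316.5 and Pdgfra from 217 to 1778. These genes went the same ways in low-KLF4, so the sum is no measure of the share of fibroblasts. The sum of 11 measured immune cell markers was 1532 and 1422 on day 2 of high-KLF4 and low-KLF4, against 2004 to 2245 in the clones. Without Lyz2 the sum of the other 10 was 1470.4 and 1346 on day 2, against 1290 to 1412 in the clones, so these values overlapped. Ptprc, which codes for the leukocyte antigen CD45, had 66.8 and 63.3 on day 2, against 53.0 to 59.6 in the clones.

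**Figure D2:**
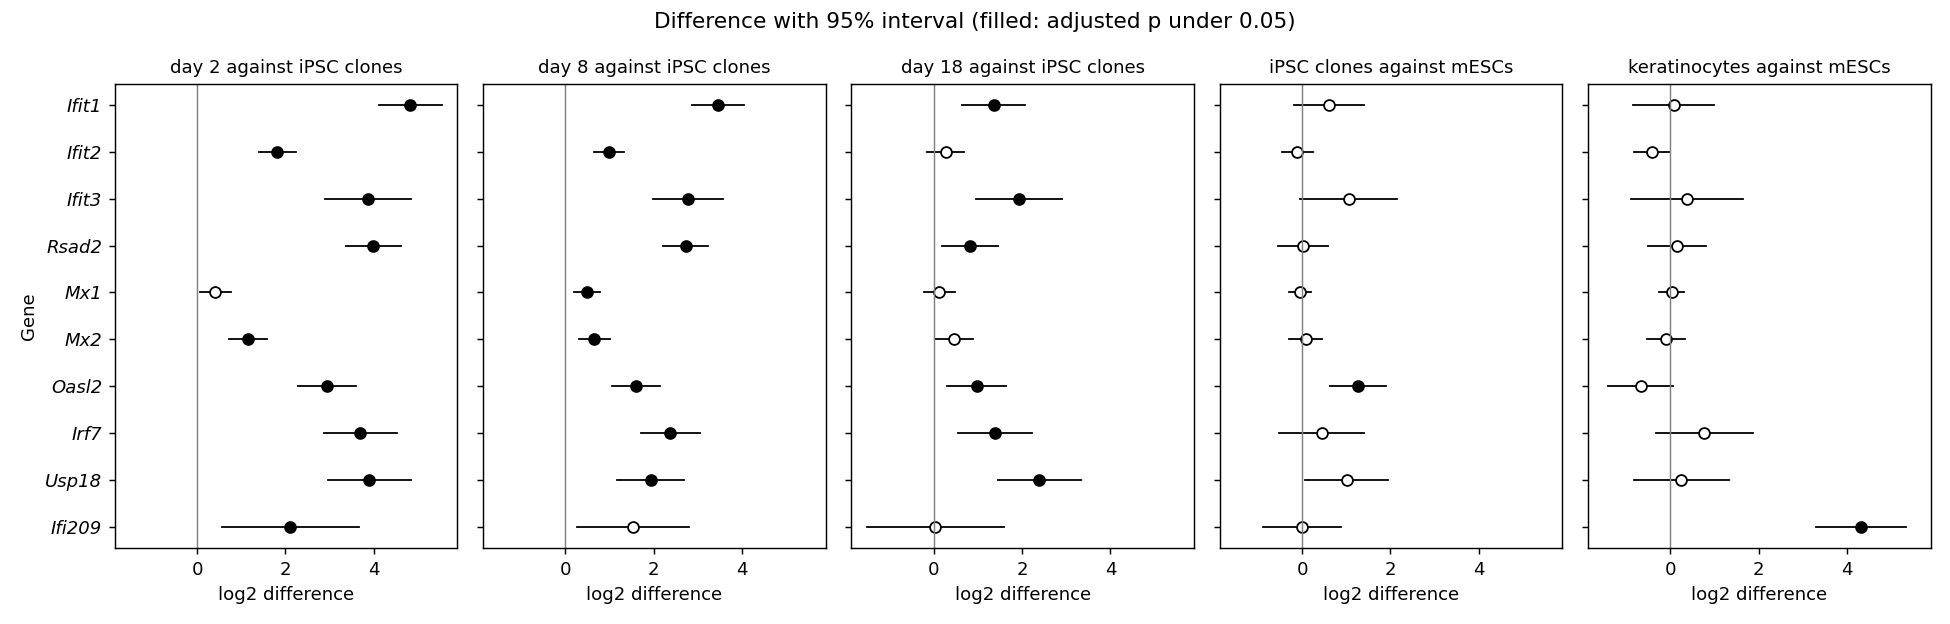
Log2 difference of each gene in 5 comparisons (points) with its 95% interval (lines), filled where limma's adjusted p was under 0.05. Of the 10 genes 9 are filled on day 2 and on day 8, 6 on day 18, Oasl2 alone for the clones against mESCs and Ifi209 alone for keratinocytes against mESCs.

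The iPSC clones were compared with mESCs to see how far the genes had reached the level of an established pluripotent line. Oasl2 was higher in the clones, with 378 and 326 in the high-KLF4 clones and 392 and 460.0 in the low-KLF4 clones, against 171 and 149.6 in mESCs (difference 1.27, SE 0.28, 2.41-fold, adjusted p = 0.0415 in limma). It was the only one of the 10 called, beside 2.02% of all probes called higher, and the call was lost when any 1 of the 6 arrays was left out (adjusted p = 0.095 to 0.306 in limma). All 4 clones were above both mESC arrays for Ifit1, Ifit3, Oasl2, Irf7 and Usp18, which was so for 19.6% of all probes. The fibroblast marker sum was also higher in the clones (6687 to 8839) than in mESCs (4746 to 5074), and its part in these differences was not tested. Ifit3 had a difference of 1.06 (95% interval -0.04 to 2.16) and Usp18 of 1.01 (0.07 to 1.94), and neither passed the test (adjusted p = 0.296 and 0.241 in limma). Rsad2 differed by 0.01 (-0.55 to 0.58) and Ifi209 by -0.01 (-0.89 to 0.88).

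Keratinocytes, a differentiated epithelial cell, were set against mESCs as the other end of the study's cell types. Ifit1 had 60.2 and 57.7 in keratinocytes, against 56.3 and 55.6 in mESCs, and Oasl2 had 95.4 and 105, against 171 and 149.6. Ifi209 alone of the 10 was called higher in keratinocytes (17.7% of all probes were), with 839.6 and 608, against 34.6 and 36.7 in mESCs. Its difference was 4.33 (SE 0.45, 20.0-fold, adjusted p = 1.11e-04 in limma), while the median of the other 9 genes was 0.08. Whether the mESC signal of Ifi209 lay above background is not known, as for Mx1, so this fold is a ratio of the signals as given, and so is its fold between the cassettes on day 8. The study's list that holds Ifi209 also kept genes higher in keratinocytes than in MEFs and for the most part left out mESC genes. The direction of its keratinocyte difference was therefore not independent of that choice.

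The cassettes were compared to see whether the form and level of KLF4 went with the interferon-stimulated genes. Over days 2 to 18, with day as a block, limma called none of the 10 genes different between 5 high-KLF4 and 5 low-KLF4 arrays (0.162% of all probes were called, 0.158% as higher). The methods' t-test with Benjamini-Hochberg adjustment called 0 of all 23410 probes, so it says nothing about these genes in particular. Limma's unadjusted p was under 0.05 for Ifi209 alone of the 10, and for 3718 of all probes. The differences of the other 9 genes lay between 0.09 (Irf7) and 0.54 (Usp18), all of them positive. For Ifit1 the difference was 0.18 with a 95% interval of -0.47 to 0.84. Ifi209 had a difference of 1.60 (0.38 to 2.82, adjusted p = 0.216 in limma).

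Ifi209 parted from the other genes on days 4 and 8. In high-KLF4 it had 177 on day 2, then 316 on day 4, 137 and 450.1 on the day 8 arrays, and finally 36.5 on day 18. In low-KLF4 it had 131, 58.4, 39.5 and 45.2, and 36.3 on the same days. High-KLF4 was above low-KLF4 by 0.43 on the log2 scale on day 2 and by 2.43 on day 4, with 1 array each. The day 8 arrays did not overlap, and on day 18 the difference was 0.009. The other 9 genes differed on day 4 by 0.01 (Rsad2) to 0.54 (Usp18).

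On day 8 limma called 2 of the 10 genes higher in high-KLF4 (2.71% of all probes), Ifi209 with a difference of 2.55 (SE 0.45, 5.88-fold, adjusted p = 0.0183) and Mx1 with 0.58 (SE 0.12, adjusted p = 0.0409). Ifi209 belongs to a list that the study chose on this contrast, so its value there is no independent evidence of its direction. Mx1 had 61.0 and 72.7 on the high-KLF4 arrays, against 47.1 and 41.9 on the low-KLF4 arrays. Both calls were lost in a fit of the 4 day 8 arrays alone (adjusted p = 0.581 for each, and 0.911 for each in the methods' t-test) and without the second low-KLF4 array (adjusted p = 0.0632 for Ifi209 and 0.186 for Mx1), and that of Mx1 also without the second high-KLF4 array (0.21). With 1 of the 4 arrays left out, the difference ranged over 1.70 to 3.41 for Ifi209 and over 0.46 to 0.71 for Mx1. Day 8 arrays with the same number deviated alike in both cassettes (r = 0.735 over 23410 probes), and the main fit did not pair them. The arrays of the cassettes did not overlap for Rsad2, Mx1, Mx2, Usp18 and Ifi209, which was so in this direction for 16.6% of all probes.

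**Figure D3:**
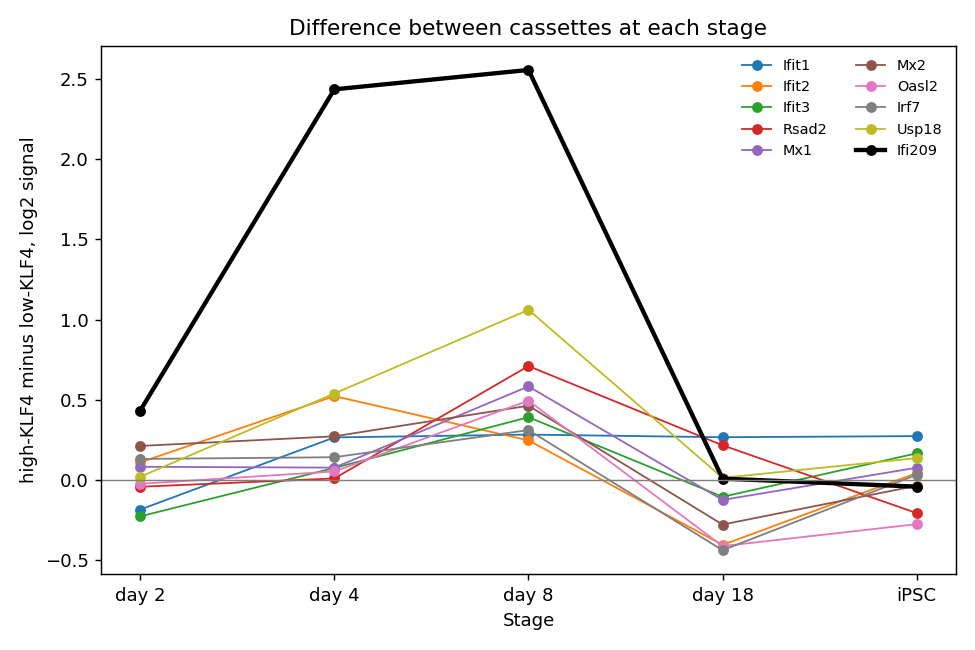
High-KLF4 minus low-KLF4 log2 signal of each of the 10 genes at each stage, from 1 array per cassette on days 2, 4 and 18 and from means of 2 arrays on day 8 and in iPSC clones. Ifi209 (thick black line) reaches 2.43 on day 4 and 2.55 on day 8, and the other genes lie between -0.44 and 1.06 at all stages.

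Most keratinocyte markers were also higher in high-KLF4 on day 8. Of the 10 measured, 7 had both high-KLF4 arrays above both low-KLF4 arrays, and Krt5, Trp63 and Perp overlapped. The sum of 10 keratinocyte markers was 11749, 16643, 17659 and 24214, and 9618 on the high-KLF4 arrays of days 2, 4, 8 and 18, against 4349, 4497, 6344 and 8654, and 4841 on those of low-KLF4. In keratinocytes the sum was 58260 and 56660. On day 18 the marker sum of high-KLF4 was 9618 and Ifi209 was at 36.5. Single markers went both ways between day 8 and day 18 of high-KLF4. Krt14 went from 3780 and 5459 to 646, and Krt5 from 161 and 201 to 462. On the first day 8 array the sum was above that of day 4, while Ifi209 had 137 on day 8 and 316 on day 4. On the second day 8 array both were at their highest of the high-KLF4 course, with 24214 for the sum and 450.1 for Ifi209. The part of these cells or genes in the signal of Ifi209 was not tested. In the iPSC clones Ifi209 differed between cassettes by -0.04, and the change of its cassette difference between day 8 and the clones was 2.60 (SE 0.63, adjusted p = 0.142 in limma). None of the 10 genes was called in that test (0.671% of all probes were called higher). Mx1 and Ifi209 had an unadjusted p under 0.05 in it, as had 2419 of all 23410 probes. The methods' t-test was not run for it.

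Across the 12 group means the 9 genes other than Ifi209 followed one another, which is a description over groups that share their course and carries no test. The correlation of each with the mean of the rest was between 0.767 (Mx1) and 0.982 (Ifit3), and with Ifi209 between 0.0962 (Oasl2) and 0.531 (Mx1). Among 19928 other genes, the profile most like the mean of the 9 was that of Gbp3 (r = 0.988), which codes for an interferon-induced GTPase. Dok1, Parp3, Trim30a, Rtp4 and Cxcl10 came next, down to r = 0.982. The genes most like Ifi209 were Shtn1 (r = 0.979), Traf3ip2, Plekhb2, Ccdc9b, Hgs and Rab27b (r = 0.958). All 6 had their highest group mean in keratinocytes, as had Ifi209 itself.

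The wider interferon pathway was set beside these genes by role. Limma called 4 of 9 measured interferon genes higher on day 2 against the clones, beside the 25.5% of all probes that apply to each list here, with Ifnz, an interferon zeta gene, at 0.87 and Ifnl2, an interferon lambda gene, at 0.46. Ifnb1, the interferon that fibroblasts make first, had 58.9 and 53.3 on day 2 of high-KLF4 and low-KLF4, against 54.3 and 55.4 in the high-KLF4 clones and 54.4 and 46.7 in the low-KLF4 clones, so its groups overlapped. Of 6 receptor genes 2 were higher, a share near that of all probes, Il10rb by 1.67 and Ifngr1 by 0.84. Of 6 signal transducers 4 were higher, led by Irf9 (1.38) and Stat2 (1.19), which code for partners in the complex that binds the ISRE.

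All 8 measured sensors of foreign nucleic acid were higher on day 2 than in the clones, with a list median of 1.14 beside 0.10 for all probes. Ifih1, which codes for the RNA sensor MDA5, had 1058.5 and 1083 on day 2 of high-KLF4 and low-KLF4, against 64.7 and 62.8 in the high-KLF4 clones and 60.8 and 63.7 in the low-KLF4 clones (difference 4.09, adjusted p = 6.26e-05 in limma). Zbp1, a sensor of nucleic acid in the Z form, was higher by 2.67. Of 9 inducing factors and adaptors 7 were higher, with Sting1, the adaptor of the DNA-sensing pathway, at 2.63 and Myd88, an adaptor of Toll-like receptors, at 1.51.

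Of 45 other interferon-stimulated effectors 34 were higher on day 2 and 2 were lower, beside 25.5% and 17.7% of all probes. The chemokines Ccl5 and Cxcl10 were furthest above the clones on day 2, by 5.35 and 5.10. Cxcl10 had 6748 and 8064 on day 2 of high-KLF4 and low-KLF4, against 216 and 184 in the high-KLF4 clones and 220.4 and 241 in the low-KLF4 clones. Ifitm1, an antiviral membrane protein, went the other way, with 392 and 398 on day 2, against 6075 and 4949 in the high-KLF4 clones and 6559 and 5919.5 in the low-KLF4 clones (difference -3.89, adjusted p = 4.77e-06 in limma). Ms4a4d was lower by 0.81 on the log2 scale. Ifih1 stands in this list as well as among the sensors.

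The PYHIN family, to which Ifi209 belongs, was mixed. Of 8 other measured members, 3 were higher on day 2 than in the clones, beside 25.5% of all probes higher and 17.7% lower (Ifi205 by 2.85, Ifi203 by 1.51 and Ifi207 by 0.85), and Aim2, which codes for an inflammasome sensor of DNA, was lower (difference -2.62, adjusted p = 2.21e-04 in limma). Limma called none of the 8 between the cassettes on day 8 or over days 2 to 18, and the methods' t-test with adjustment called 0 of all probes there. Limma's unadjusted p was under 0.05 for 1 of the 8 in each comparison, beside 3785 and 3718 of all 23410 probes. In keratinocytes against mESCs 1 of them was higher, Ifi206 by 0.33, and Aim2 was lower. Of 8 antigen presentation genes 6 were higher on day 2, led by Tapbp (1.52) and Tap1 (1.46), which act in the loading of peptides. Of 8 negative regulators 4 were higher and 3 lower, with Irf2 at 1.48 and Rnf125 at -1.24.

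**Figure D4:**
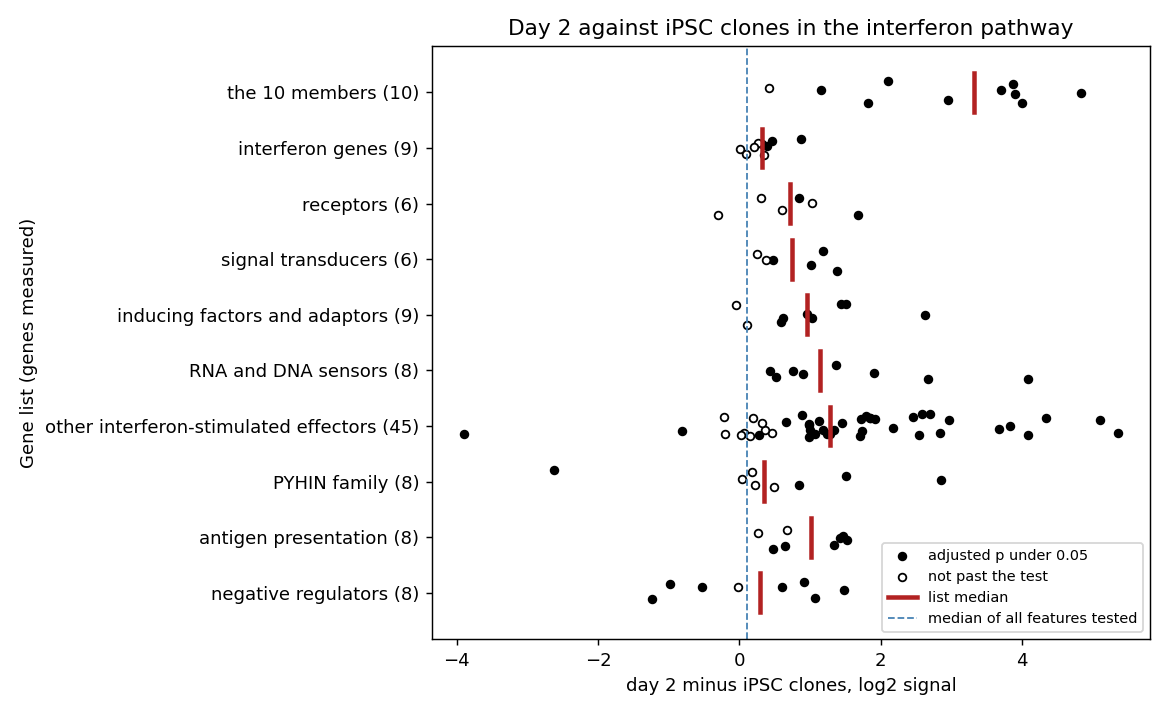
Day 2 minus iPSC clones log2 difference of the genes in 9 pathway lists and of the 10 genes (points, filled where limma's adjusted p was under 0.05), with list medians (red bars) and the median of all probes tested (dashed line, 0.10). The median is 3.32 for the 10 genes, 1.29 for other effectors and 0.32 for interferon genes.

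Between the cassettes over days 2 to 18, limma called 0 of the 106 genes in these 9 lists, beside 0.162% of all probes. The methods' t-test with adjustment called 0 of all probes. Limma's unadjusted p was under 0.05 for 15 of the 106 genes and for 3718 of all 23410 probes, a similar share. In keratinocytes against mESCs calls in the lists ran both ways. Of the other effectors 3 were higher and 9 lower, beside 17.7% and 20.4% of all probes, with Isg20, a nuclease that degrades RNA, at 2.52 and Ifi35 at 2.04, and with Ifitm1 at -5.01 and Phf11d at -3.98. Of the 8 sensors 0 were called by limma or the adjusted t-test, and 1 had an unadjusted p under 0.05 in limma, as had 10438 of all 23410 probes. Il10rb (2.91) and Ifngr1 (1.37) led the receptors, Jak2 (1.16) and Jak1 (0.81) the transducers, and Ikbke (2.51) and Irf5 (0.54) the adaptors, where Sting1 (adjusted p = 9.69e-05 in limma) and Irf1 (adjusted p = 0.00442) were lower. Tap1 (1.95) and Tap2 (1.42), the peptide transporter of antigen presentation, were higher and Psmb10, an immunoproteasome subunit, was lower (-0.88). Among the negative regulators Irf2 (3.12) and Tnfaip3 (1.57) were higher, and Samhd1 (-2.82) and Rnf125 (-2.11) were lower.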

How the data were processed

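The authors hybridised 200 ng of total RNA per sample and normalized the arrays by RMA in GeneSpring. The deposited values are the authors' linear RMA intensity per probe, with array medians of 139 to 162. Detection calls were not used, and the genome build is not given in the sources used here. Of 28853 probes, 21789 carried 1 gene symbol, 1621 several and 5443 none in the platform annotation, and no symbol was renamed. Log2 intensity was tested with limma 3.58.1 in R 4.3.3 over the 23410 probes with a symbol, two-sided, with Benjamini-Hochberg adjustment. Stages were compared in a fit of 14 arrays with stage and cassette as terms, cassettes over days 2 to 18 in 10 arrays with day as a block, and the remaining comparisons in 18 arrays with 12 group means. All 10 genes were named. From the pathway lists, the 2 largest changes past the test in each direction were named, and likeness named 6 genes per profile by Pearson correlation. Ifnb1 and Ifi207 were added once their values had been seen. The members and lists were chosen with earlier results of these data known. Marker sums add the signal of the listed genes measured by a single-symbol probe. Genes without such a probe, among them Isg15, and arrays of MEFs, day 6 and TROP2-sorted cells were not analysed here. The scripts were tested on simulated data. Alternatives were a filter on dim probes, a second quantile normalization, limma-trend, other probe sets, the methods' t-test, a replicate block, other sets of arrays and leaving out each array. Python 3.11.15 with pandas 2.3.3, numpy 2.4.6 and matplotlib 3.10.9 served for promoters and figures.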

Additional observations from a re-analysis of the deposited data

How the results depend on the processing

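Across 9 comparisons and 147 alternative fits, 1278 of 1443 single-gene results kept their direction and side of the threshold, 69 lost the threshold, 49 gained it and 47 changed sign, of which 0 had been called. Arrays were few (6 groups had 1 array), which limits the precision. Counts of the 10 genes called are given next, and the cause of each change was not tested unless fewer arrays or probes were used. The count over all probes changed with the setting too, so these counts do not single out the 10 genes. With 1 array left out, day 2 against the clones had 8 to 9 genes higher, day 18 against the clones 1 to 5, day 8 against day 2 0 to 6 lower, high-KLF4 against low-KLF4 on day 8 0 to 7 higher, the clones against mESCs 0 to 0, and the change of the cassette difference 0 to 2. Day 8 against day 2 had 0 lower in the methods' t-test after adjustment, 3 before it, and 0 in a fit of these stages alone. That adjusted t-test and that fit called 0 of all probes lower. High-KLF4 against low-KLF4 over days 2 to 18 had 1 higher in a fit of 18 arrays. On day 8 this count was 0 without the dimmest 30% of probes (which hold Mx1, Mx2 and Ifi209), 0 in the t-test before and after adjustment, and 0 in the compared arrays alone. The adjusted t-test and the fit of the compared arrays called 0 of all probes there. Keratinocytes against mESCs had 0 higher without the dimmest probes, 2 lower in the unadjusted t-test, and 2 higher and 2 lower in the compared arrays alone. The clones against mESCs had 0 higher after a second quantile normalization, 3 in the adjusted and 5 in the unadjusted t-test, and 5 in the compared arrays alone.

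The day 8 arrays of both cassettes that share a replicate number had correlated deviations (r = 0.735 over 23410 probes). Other pairs of groups had not (-0.0329 to 0.0206). The day 8 arrays may thus be paired by number, and the main fits did not take this up. With a replicate block for the day 8 number, 3 genes were called for the clones against mESCs and 3 for high-KLF4 against low-KLF4 on day 8. There were 7 lower for day 8 against day 2, and 1 for the change of the cassette difference. Over all 23410 probes the same calls came to 1768, 1752, 1985 and 676 in that order.

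Leaving out both day 8 arrays numbered 2, which was chosen after seeing the data, gave 1 gene called on day 8 and 1 for the change of the cassette difference. High-KLF4 minus low-KLF4 turned to -0.028 (Ifit3), -0.16 (Oasl2) and -0.23 (Irf7) over the days, and to -0.17 (Ifit1), -0.15 (Ifit2), -0.25 (Oasl2) and -0.75 (Irf7) on day 8. The change of the cassette difference turned to -0.45 (Ifit1), -0.19 (Ifit2), -0.025 (Ifit3), -0.78 (Irf7) and -0.037 (Usp18). Ifi209 in the clones against mESCs turned to 0.022 after a second quantile normalization.

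With 1 array left out these uncalled differences changed sign. On day 18 against the clones, Ifit2 ranged over -0.035 to 0.57, Mx1 over -0.064 to 0.31 and Ifi209 over -0.62 to 0.69. On day 8 against day 2, Mx1 ranged over -0.039 to 0.18. For high-KLF4 against low-KLF4 over the days, Ifit1 ranged over -0.058 to 0.39, Ifit3 over -0.21 to 0.33, Oasl2 over -0.11 to 0.26 and Irf7 over -0.21 to 0.33. On day 8, Ifit1 ranged over -0.45 to 1.02, Ifit2 over -0.033 to 0.53, Ifit3 over -0.49 to 1.28, Oasl2 over -0.082 to 1.07 and Irf7 over -0.56 to 1.19. In keratinocytes against mESCs, Mx1 ranged over -0.050 to 0.12 and Rsad2 over -0.015 to 0.32. In the clones against mESCs, Rsad2 ranged over -0.078 to 0.11, Mx1 over -0.11 to 0.0083, Mx2 over -0.012 to 0.18 and Ifi209 over -0.050 to 0.035. For the change of the cassette difference, Ifit1 ranged over -0.72 to 0.74, Ifit2 over -0.077 to 0.48, Ifit3 over -0.66 to 1.11 and Irf7 over -0.60 to 1.15.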
